A study of Homo sapiens with 6 samples.

Results

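The HOX genes of the 4 human HOX clusters were described in RNA-seq data from HEK293T-Rex cells, a human embryonic kidney line that the labels call HEK293. Members were all transcripts of protein-coding genes whose symbol is HOXA, HOXB, HOXC or HOXD followed by a number. This gave 39 of the 63190 genes and 112 of the 207167 transcripts in the table. The D391N group (3 libraries) overexpressed a catalytic site mutant of the exoribonuclease DIS3L2 from a stably integrated, inducible and FLAG-tagged construct. The control group (3 libraries) was labelled control only. Whether the control cells received the inducing agent, and whether the libraries came from separate cultures, is not given in the sources used here. The p-values therefore measure the spread between these libraries, which may be technical. The question was how RNA levels differ between D391N-expressing and control cells.

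HOX genes encode homeodomain transcription factors that give cells along the body axis their positional identity. Within a cluster the genes lie in the order in which they act from head to tail, and genes at the same position in different clusters, called paralogues, descend from a common ancestor. HOX proteins bind DNA together with PBX, MEIS and PKNOX cofactors, while Polycomb and MLL complexes keep their loci silent or active. Antisense and other non-coding RNAs are transcribed from the same clusters. Cultured cells usually retain a HOX pattern of their tissue of origin, and in the kidney the group 11 paralogues are known for the formation of the metanephros.

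The overexpression was plain in the libraries, with DIS3L2 at 369 to 512 RPKM (a read density scaled to transcript length and library size) in the D391N group and at 11.8 to 14.6 RPKM in the controls. Of the markers reported for HEK293 cells, 7 of 9 reached a mean of 1 RPKM, among them VIM at 141.4 and NEFL at 54.3 RPKM, while NEFM and NEFH did not. EPCAM, an epithelial marker, was at 109.7 RPKM. Means of the fibroblast markers COL1A1 and DCN were 2.99 and 3.30 RPKM, and those of the blood markers HBB and PTPRC 3.85 and 1.55 RPKM, with fewer than 1 estimated read behind each PTPRC value. The means of COL1A2, CD3E, the hepatocyte markers ALB and APOA1 and the endothelial marker CDH5 were under 1 RPKM. DCN was higher in every D391N library than in any control (log2 fold change 0.82, limma adjusted p = 0.179). COL1A1 differed in the other direction with overlapping groups (log2 fold change -0.30, limma adjusted p = 0.594). The groups of COL1A2 overlapped too. The part of other cell types in the HOX values was not tested. The deepest library had an estimated 1.45 times the depth of the shallowest. In the bulk RNA measured here, fewer cells with a transcript and less of it per cell cannot be told apart. When D391N replicate 1 was left out, the number of genes called between the groups went from 29 to 2261. It was 2 to 11 without any other single library.

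HOX genes of all 4 clusters were detected. Of the 39 genes, 35 averaged 1 RPKM or more over the 6 libraries, and 11 averaged 20 RPKM or more. HOXB1, HOXC12, HOXD1 and HOXD12 were under 1 RPKM and were not tested. HOXB1, a hindbrain gene, had fewer than 3 estimated reads in every library. At this depth its expression could not be told from none. Summed over all HOX genes, the libraries held 534, 506 and 577 RPKM in the D391N group and 579, 561 and 497 RPKM in the controls. These sums overlapped (log2 difference of D391N minus control -0.02, two-sided exact permutation p = 0.90). With 3 libraries against 3 the smallest p this test can give is 0.10.

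**Figure D1:**
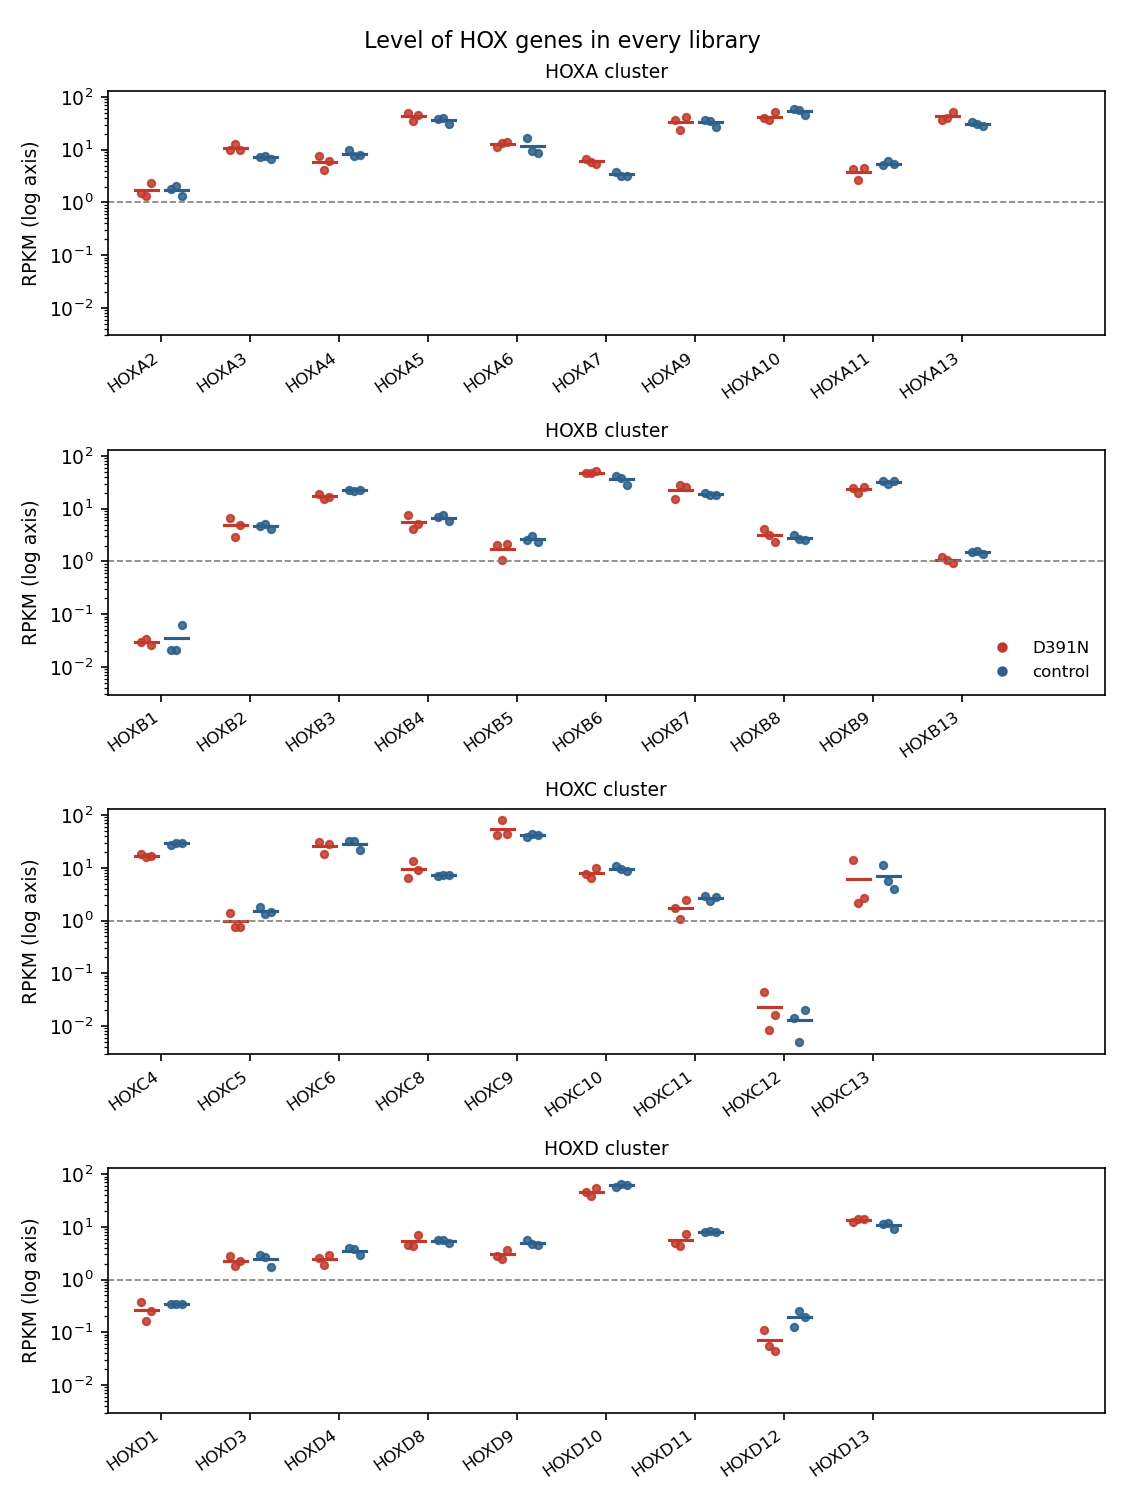
RPKM of 38 of the 39 HOX genes on a log axis, 1 panel per cluster with genes in paralogue order; points are libraries, short bars are group means, and the dashed line marks 1 RPKM. HOXB1, HOXC12, HOXD1 and HOXD12 lie below the line, and the D391N and control points of most genes overlap.

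At the gene level, 0 of the 35 tested HOX genes passed the threshold of an adjusted p under 0.05 in limma, a linear model with moderated variances fitted to log2(RPKM + 0.1) and adjusted over all 20714 tested genes. Over all tested genes 0.14% were called, of which 28 were lower and 1 was higher in the D391N group. The smallest adjusted p of a HOX gene was 0.079, for HOXC4. Without adjustment 10 HOX genes (28.6%) had p under 0.05, of which 6 were lower and 4 higher, beside 22.7% of all tested genes. That count was 13, 8 and 11 without D391N replicates 1, 2 and 3, and 4, 5 and 4 without control replicates 1, 2 and 3. The share over all tested genes moved too. It was 31.1% without D391N replicate 1 and stayed below 22.7% without D391N replicate 2 or 3. Without control replicates 1, 2 and 3 it was 14.3, 14.1 and 13.9%. The count of HOX genes past the adjusted threshold was 1 without D391N replicate 1, again HOXC4, beside 2261 of all 20714 tested genes. It was 0 without any other library.

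Differences between the groups were small for HOX genes. Their log2 fold changes ran from -0.76 to 0.79, so that none exceeded 1 in size, whereas 11.5% of all tested genes did. The groups did not overlap in 10 HOX genes that were lower in the D391N libraries (28.6%) and in 5 that were higher (14.3%). Over all tested genes the same shares were 20.7% lower and 10.5% higher. The median log2 fold change was -0.18 for the HOX genes and -0.09 for all genes, with 22 HOX genes below 0 and 13 above. Centring each library on its median raised the log2 differences by 0.22, which placed the HOX median at 0.04 with 17 of 35 genes below 0, and quantile normalization gave -0.08 with 18 below 0. The side of 0 on which the HOX genes lay as a group thus depended on the scaling. The HOX median was also 0.04 without D391N replicate 2, the library with the lowest median HOX level, and ran from -0.35 to -0.08 without any other single library.

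**Figure D2:**
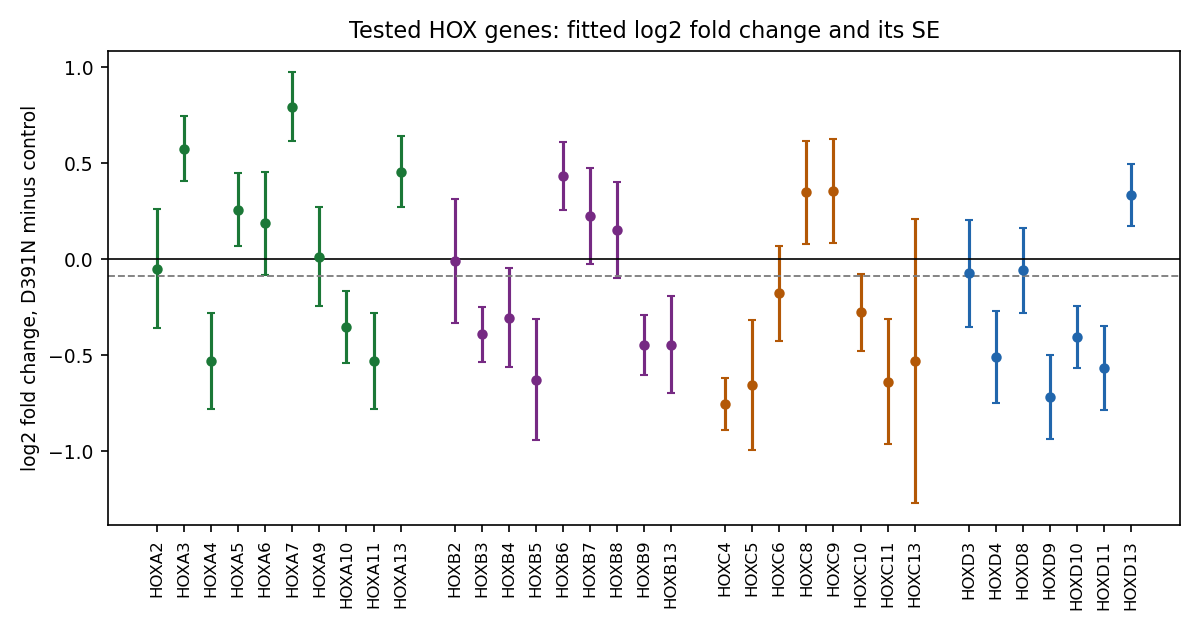
Log2 fold change (D391N minus control) of 34 of the 35 tested HOX genes with its SE, by cluster and in paralogue order; the solid line is 0 and the dashed line the median of all tested genes (-0.09). HOXA7 has the largest positive value (0.79) and HOXC4 the largest negative value (-0.76).

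HOXA10, a gene known for its roles in the uterus and in blood progenitors, held the only HOX transcript that passed the threshold. Among 76 tested HOX transcripts the count was 1, beside 0.0604% of all 54671 tested transcripts. That transcript was HOXA10-205 (ENST00000524368), which fell by 4.26 on the log2 scale. It has no annotated coding sequence. All coordinates here are from GENCODE v44 on GRCh37, whereas the study mapped to GRCh38. HOXA10 lies on the minus strand at chr7:27210224-27219880. Its 5 annotated transcripts join 1 of several first exons to a shared second exon that starts at position 27211792 and carries the homeobox in the protein-coding ones.

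The junctions are shown because they are what tells these transcripts apart. Each is printed 5′ to 3′ over 30 bases on the minus strand, with the last 15 bases of the first exon in capitals and the first 15 bases of the shared exon in lower case.
HOXA10-201: AGAAGGATTCCCTGGgcaattccaaaggtg
HOXA10-202: CGGAAATGTGTCAAGgcaattccaaaggtg
HOXA10-203: TGGCCCATCTTCCAAgcaattccaaaggtg
HOXA10-204: TTAGCGCTAAAACAGgcaattccaaaggtg
HOXA10-205: CGGGAAGAAGAAAAGgcaattccaaaggtg
Each of these 30-base windows was found in 1 annotated transcript.

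HOXA10-203, HOXA10-204 and HOXA10-205 all begin inside the intron of HOXA10-201, and none has an annotated coding sequence. The first exon of HOXA10-205 runs over 146 bases at chr7:27212437-27212582. It shares 72 bases with the first exons of the other two and begins 74 bases upstream of them, at chr7:27212509-27212582. That stretch is shown because no other annotated transcript holds it.
HOXA10-205, own first-exon bases: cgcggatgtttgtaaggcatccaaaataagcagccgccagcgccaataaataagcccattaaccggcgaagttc
Of 254399 annotated transcripts searched, 1 contained this stretch, and 0 contained it in antisense. HOXA10-AS, an antisense transcript, overlaps 538 of the 942 exonic bases of HOXA10-205 on the opposite strand. HOXA10-AS itself was at 5.98, 3.81 and 3.14 RPKM in the D391N libraries and at 5.47, 6.25 and 4.003 RPKM in the controls, with overlapping groups. The library kit keeps the strand, but whether the counting used it is not given in the sources used here.

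**Figure D3:**
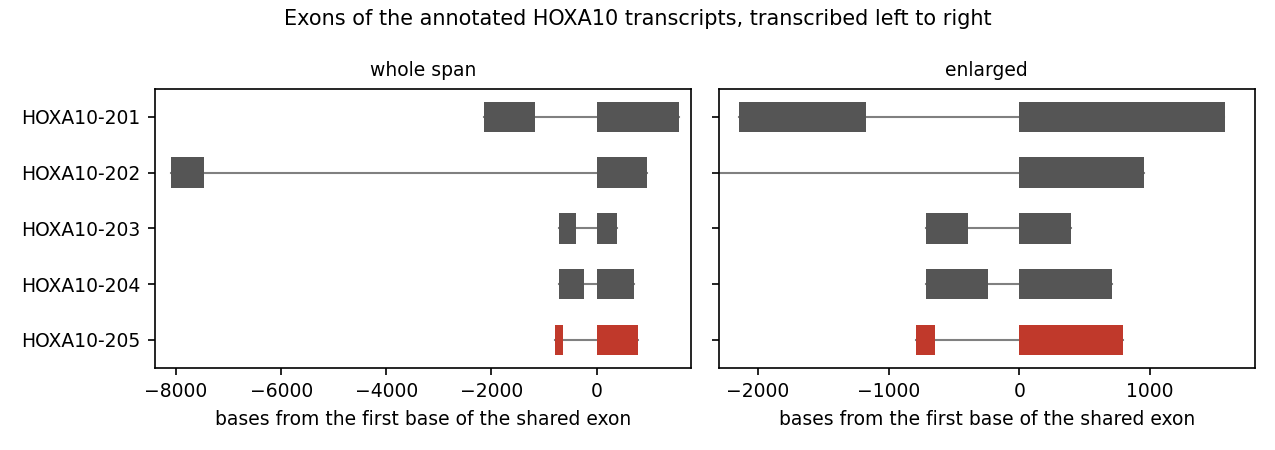
Exons (boxes) and introns (lines) of the 5 annotated HOXA10 transcripts, drawn to scale in bases from the first base of the shared exon, over the whole span (left) and enlarged (right). HOXA10-205, in red, has the shortest first exon (146 bases) and starts 74 bases before HOXA10-203 and HOXA10-204.

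HOXA10-205 was at 0.56, 1.30 and 0.81 RPKM in the D391N libraries and at 18.9, 15.8 and 19.4 RPKM in the controls. Every control was far above every D391N library. An estimated 1.09, 8.45 and 2.37 reads stood behind the D391N values and 112, 80.5 and 109 behind the control values. The mean of the controls was 20.3 times that of the D391N group (log2 fold change -4.26, SE 0.34, limma adjusted p = 0.028). In 15 alternative settings the log2 fold change lay between -4.54 and -3.35, whereas the adjusted p ran from 0.0046 to 0.219. With 1 library left out, the call was lost without D391N replicate 3 (adjusted p = 0.095) and without control replicate 1, 2 or 3 (0.139, 0.199 and 0.219). Without D391N replicate 1, 3 HOX transcripts were called, beside 4961 of all 54671 tested transcripts. They were HOXA10-205, HOXC10-205 and the HOXA3 transcript ENST00000518451. The last 2 were higher in D391N replicates 2 and 3 than in any control. With D391N replicate 1, at 0.097 and 0.65 RPKM, their groups overlapped. Fewer than 1 estimated read stood behind each of their control values.

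The other HOXA10 transcripts did not pass the threshold. HOXA10-203 was at 7.70, 8.07 and 7.76 RPKM in the D391N libraries and at 3.41, 3.35 and 1.60 RPKM in the controls, without overlap (log2 fold change 1.54, SE 0.34, limma adjusted p = 0.137). HOXA10-204 was at 2.27, 3.33 and 2.10 RPKM against 5.39, 5.70 and 4.55 RPKM (log2 fold change -1.02, adjusted p = 0.176). The values of these 2 transcripts separated the groups in opposite directions. Of the summed level of the 3 transcripts without a coding sequence, HOXA10-205 made up 5.33, 10.3 and 7.59% in the D391N libraries, against 68.3, 63.7 and 75.9% in the controls. HOXA10-203 made up 73.1, 63.5 and 72.8% against 12.3, 13.4 and 6.26%. The sum of the 3 was 10.5, 12.7 and 10.7 RPKM against 27.8, 24.9 and 25.5 RPKM (log2 difference -1.21, two-sided exact permutation p = 0.10, the smallest possible). Levels of transcripts that share reads are estimated together, so that they are not independent of each other.

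The transcripts annotated as protein-coding, HOXA10-201 and HOXA10-202, did not separate the groups. Together they were at 11.5, 8.78 and 16.4 RPKM in the D391N libraries and at 13.6, 11.2 and 7.76 RPKM in the controls. The HOXA10 transcript with the highest mean over the 6 libraries, ENST00000613671, is not in the annotation used. Whether it encodes protein is therefore not known here. In the controls alone HOXA10-205 had the higher mean (18.1 against 17.1 RPKM). ENST00000613671 was at 18.1, 14.7 and 24.2 RPKM against 18.5, 20.1 and 12.8 RPKM (log2 fold change 0.14, adjusted p = 0.832). Its values overlapped, but as a share of all HOXA10 RNA it made up 45.1, 40.6 and 47.2% against 31.0, 35.8 and 27.7%. This difference of 12.8 percentage points reached the smallest p of the two-sided exact permutation test (p = 0.10). It is not separate from the fall of HOXA10-205, which is part of the sum that the share is taken of. HOXA10-205 made up a mean of 2.19% of HOXA10 RNA in the D391N libraries and 33.98% in the controls. The share of ENST00000613671 in HOXA10 without HOXA10-205 was not tested. A read-through transcript of HOXA10 and HOXA9, ENST00000470747, was at 5.87, 8.91 and 11.4 RPKM against 5.75, 4.996 and 2.12 RPKM. Every D391N library was above every control in the read-through.

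As a gene, HOXA10 was at 40.2, 36.2 and 51.2 RPKM in the D391N libraries and at 59.8, 56.2 and 46.1 RPKM in the controls. The groups overlapped (log2 fold change -0.35, SE 0.19, limma adjusted p = 0.305). Without HOXA10-205 the sums were 39.6, 34.8 and 50.4 RPKM against 40.9, 40.3 and 26.7 RPKM. The log2 difference then changed sign, from -0.35 to 0.22 (two-sided exact permutation p = 0.60).

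**Figure D4:**
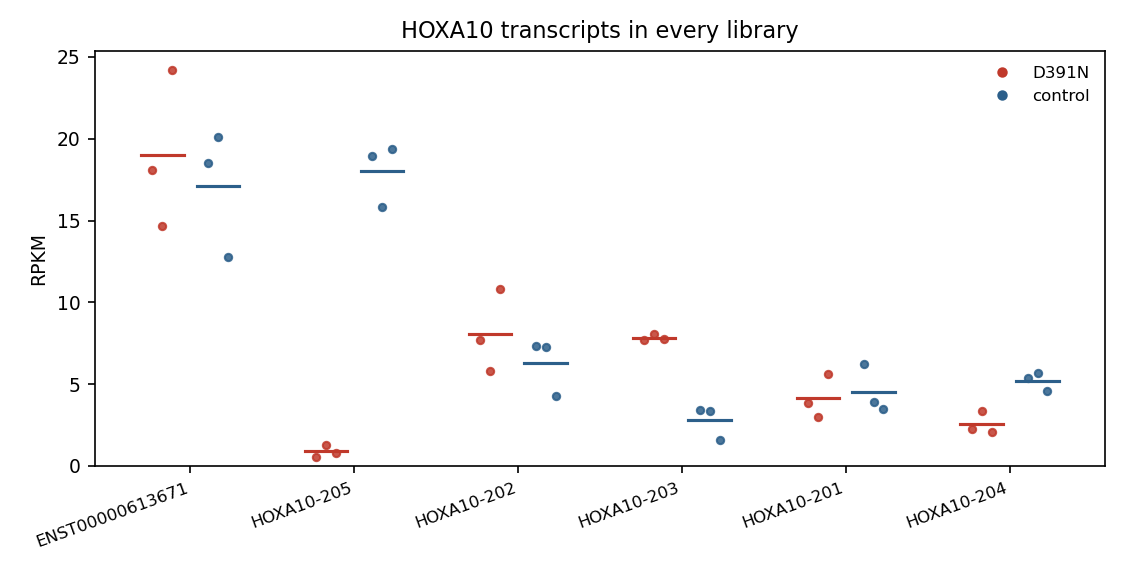
RPKM of the 6 HOXA10 transcripts in each library (points) with group means (bars). HOXA10-205 sits at 0.56 to 1.30 RPKM in the D391N libraries and at 15.8 to 19.4 RPKM in the controls, while HOXA10-203 is higher in the D391N libraries.

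The HOXA cluster (chr7:27132612-27239710, minus strand) summed to 208, 176 and 238 RPKM in the D391N libraries and to 217, 201 and 166 RPKM in the controls. The sums overlapped (log2 difference 0.09, two-sided exact permutation p = 0.60), and the sign turned without D391N replicate 3 (-0.01) or control replicate 3 (-0.02). HOXA10 and HOXA5 were the most abundant of its 11 genes and held 43.8% of the cluster. HOXA5, which acts in the lung and the cervical vertebrae, was at 49.25, 34.8 and 45.9 RPKM against 38.0, 39.4 and 30.6 RPKM, and its groups overlapped (log2 fold change 0.26, adjusted p = 0.447). Means over the 6 libraries were 36.7 RPKM for HOXA13, 33.3 for HOXA9, 12.3 for HOXA6, 9.03 for HOXA3 and 7.20 for HOXA4. HOXA7, HOXA11 and HOXA2 followed at 4.69, 4.64 and 1.73 RPKM. Of the 11 genes, 7 were above 0 and 4 below in log2 fold change.

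The 3 largest positive log2 fold changes of the HOX genes were all in the HOXA cluster. HOXA7 was at 6.71, 5.76 and 5.43 RPKM in the D391N libraries and at 3.81, 3.16 and 3.23 RPKM in the controls. HOXA3, known for its role in thymus and parathyroid formation, was at 9.87, 12.8 and 9.92 RPKM against 7.40, 7.52 and 6.69 RPKM. HOXA13, which patterns the distal limb and the urogenital tract, was at 36.05, 39.5 and 52.45 RPKM against 33.8, 31.0 and 27.5 RPKM. In each of the 3 genes every D391N library was above every control. The HOXA3 sum includes ENST00000518451, at 0.65, 6.04 and 2.71 RPKM against 0.40, 0.81 and 0.41 RPKM. An estimated 0.41, 23.3 and 7.42 reads stood behind its D391N values and 0.15, 0.52 and 0.13 behind its control values. A HOXA3 sum without that transcript was not formed. The log2 fold changes were 0.79 (SE 0.18) for HOXA7, 0.58 (SE 0.17) for HOXA3 and 0.46 (SE 0.18) for HOXA13. Their limma adjusted p-values of 0.101, 0.133 and 0.209 missed the threshold. Each log2 fold change stayed above 0 under quantile normalization. Median centring raises every log2 difference, so it could not have brought them below 0.

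Among the HOXA7 transcripts the groups separated in a short transcript without an annotated coding sequence. HOXA7-203 was at 5.23, 4.203 and 3.79 RPKM in the D391N libraries and at 2.28, 1.69 and 1.93 RPKM in the controls (log2 fold change 1.12, SE 0.27, adjusted p = 0.148). The protein-coding HOXA7-201 was at 1.10, 1.40 and 1.46 RPKM against 1.36, 1.30 and 1.11 RPKM. Its groups overlapped, whereas those of HOXA7-203 did not.

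HOXA-AS3, a non-coding gene on the opposite strand (chr7:27169596-27195547, plus strand), was the 1 gene past the threshold among 16 tested non-coding genes of the clusters, beside 0.14% of all tested genes. It was at 1.02, 0.62 and 0.89 RPKM in the D391N libraries and at 5.28, 5.25 and 3.85 RPKM in the controls. Every control lay well above every D391N library, and HOXA-AS3 fell by 2.38 on the log2 scale (SE 0.27, limma adjusted p = 0.047). Its exons overlap 1507 of the 2411 exonic bases of HOXA7 (62.5%) and 505 of those of HOXA6, a gene that did not separate the groups. The difference ran from -1.65 to -2.53 over 14 alternatives, but 11 of them ended the call, with adjusted p-values of up to 0.234. Among these were the fits without D391N replicate 2 (adjusted p = 0.075), D391N replicate 3 (0.0997), and control replicates 1, 2 and 3 (0.213, 0.234 and 0.195). Without use of strand, reads from HOXA-AS3 and HOXA7 cannot be told apart where they overlap. The part of strand assignment in either value was not tested.

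**Figure D5:**
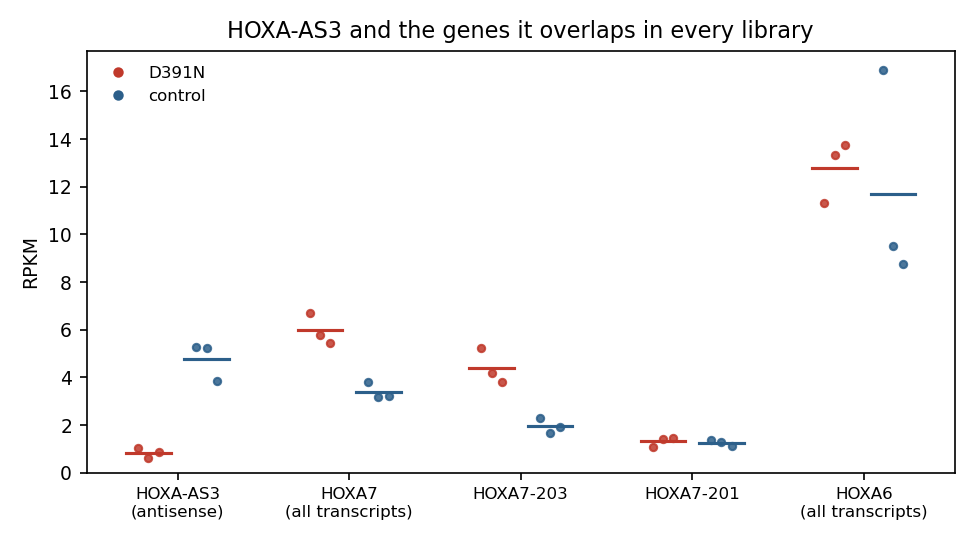
RPKM in each library (points) and group means (bars) of the antisense gene HOXA-AS3, of HOXA7 and its transcripts HOXA7-203 and HOXA7-201, and of HOXA6. HOXA-AS3 is lower and HOXA7 and HOXA7-203 are higher in every D391N library than in any control, while HOXA7-201 and HOXA6 overlap.

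The HOXB cluster (chr17:46605888-46806112, minus strand) had nearly equal sums in both groups. They were 128, 122 and 135 RPKM in the D391N libraries and 136, 127 and 120 RPKM in the controls (log2 difference 0.01, two-sided exact permutation p = 0.90). The sign turned to -0.03 without D391N replicate 3 and to -0.04 without control replicate 3. HOXB6 and HOXB9 held 54.5% of the cluster. HOXB6 was at 46.8, 46.6 and 51.2 RPKM against 41.1, 38.8 and 28.3 RPKM, each D391N library above each control (log2 fold change 0.43, SE 0.18, adjusted p = 0.214). Of the HOXB6 transcripts only HOXB6-201 separated the groups, at 3.72, 14.4 and 4.78 RPKM against 1.05, 2.47 and 2.14 RPKM. An estimated 8.9, 95.6 and 12.5 reads stood behind its D391N values and 3.45, 8.35 and 3.06 behind its control values. A HOXB6 sum without HOXB6-201 was not formed. HOXB9, a gene of thoracic identity, differed in the other direction, at 24.7, 19.95 and 25.5 RPKM against 33.0, 28.9 and 33.7 RPKM (log2 fold change -0.45, SE 0.16, adjusted p = 0.168). Neither passed the threshold.

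HOXB3, a hindbrain gene with 13 transcripts in the table, the largest number of the HOX genes, was at 19.2, 15.1 and 17.0 RPKM in the D391N libraries and at 22.7, 21.4 and 22.95 RPKM in the controls. The groups did not overlap (log2 fold change -0.39, SE 0.15, limma adjusted p = 0.184). HOXB7, HOXB4, HOXB2, HOXB8, HOXB5 and HOXB13 had means over the 6 libraries of 21.0, 6.23, 4.75, 2.99, 2.19 and 1.28 RPKM. HOXB13, a prostate marker, and HOXB5 were also lower in every D391N library than in any control, with adjusted p-values of 0.334 and 0.283. Of the 9 tested genes of the cluster, 6 were below 0 and 3 above.

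The HOXC cluster (chr12:54332615-54449814, plus strand) summed to 122, 140 and 113 RPKM in the D391N libraries and to 132, 131 and 118 RPKM in the controls. These sums overlapped (log2 difference -0.03, two-sided exact permutation p = 0.90) and the sign turned under median centring (0.19). HOXC9, a gene of thoracic identity, was the most abundant at 41.4, 81.4 and 43.7 RPKM against 38.98, 43.3 and 41.5 RPKM. Only D391N replicate 2 stood apart in HOXC9, and the log2 fold change was 0.36 (SE 0.27, adjusted p = 0.464), or 0.04 to 0.53 when 1 library was left out. HOXC9-202, which has no annotated coding sequence, held 90.05% of HOXC9 in the D391N group and 82.98% in the controls. HOXC6 was at 30.4, 18.6 and 27.8 RPKM against 32.4, 31.6 and 22.2 RPKM, and its groups overlapped (log2 fold change -0.18, adjusted p = 0.702).

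The 3 largest negative changes included HOXC4 and HOXC5. HOXC4 was at 18.5, 16.1 and 16.6 RPKM in the D391N libraries and at 26.6, 29.99 and 30.1 RPKM in the controls. The libraries of each group lay close together and the groups were clearly separate (log2 fold change -0.76, SE 0.14, limma adjusted p = 0.079). The value stayed between -0.54 and -0.82 in 15 alternatives, and its adjusted p ran from 0.0279, without D391N replicate 1, to 0.292. Both of its main transcripts had a value of like size, the protein-coding HOXC4-202 with -0.94 and HOXC4-203, which has no annotated coding sequence, with -0.92. The third tested transcript, the protein-coding HOXC4-201, had a value of 1.14 (SE 0.62, adjusted p = 0.374). It was at 0.84, 3.41 and 1.57 RPKM against 0.78, 0.38 and 1.14 RPKM, and its groups overlapped. HOXC5 was near the filter on low values, at 1.42, 0.75 and 0.76 RPKM against 1.84, 1.35 and 1.43 RPKM, and its groups overlapped (log2 fold change -0.66, SE 0.34, adjusted p = 0.291).

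HOXC10, HOXC8, HOXC13 and HOXC11 had means over the 6 libraries of 8.77, 8.42, 6.59 and 2.21 RPKM. HOXC13, a hair keratin regulator, had the highest ratio between libraries of the tested HOX genes. It was at 13.9, 2.12 and 2.69 RPKM in the D391N libraries and at 11.2, 5.65 and 3.92 RPKM in the controls. The highest library was 6.58 times the lowest, beside a median of 1.87 times for the tested HOX genes. HOXC12 was at 0.0178 RPKM on average.

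The HOXD cluster (chr2:176957449-177055635, plus strand) was the only cluster whose sums did not overlap between the groups. They were 77.0, 68.2 and 91.3 RPKM in the D391N libraries and 94.7, 101.5 and 93.9 RPKM in the controls. The log2 difference of -0.30 had the smallest p that the two-sided exact permutation test can give (p = 0.10). It shrank to -0.09 (exact permutation p = 0.80) when libraries were centred on their medians and to -0.16 (exact permutation p = 0.30) with the most abundant transcript of each gene only. Of 7 tested genes, 6 were below 0, and HOXD13 was above.

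HOXD10, a gene of lumbar identity, held 61.0% of the cluster. It was at 46.2, 38.98 and 53.55 RPKM in the D391N libraries and at 56.8, 63.8 and 61.9 RPKM in the controls, without overlap (log2 fold change -0.41, SE 0.16, limma adjusted p = 0.205). HOXD13, which patterns the digits, was at 12.5, 14.0 and 14.35 RPKM against 11.3, 12.0 and 9.21 RPKM, again without overlap but in the other direction (log2 fold change 0.34, SE 0.16, adjusted p = 0.262). HOXD9 was at 2.86, 2.47 and 3.69 RPKM against 5.75, 4.65 and 4.52 RPKM (log2 fold change -0.72, SE 0.22, adjusted p = 0.142). It was the second most negative of the HOX genes. HOXD11 was also lower in each D391N library (log2 fold change -0.57, adjusted p = 0.197). Means over the 6 libraries were 6.83 RPKM for HOXD11, 5.34 for HOXD8, 3.02 for HOXD4, 2.35 for HOXD3 and 0.132 for HOXD12.

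Across clusters, paralogue groups 9 and 10 were the most abundant, with 20.9% and 20.4% of the summed HOX level. Group 13 followed group 6 (15.04%) with 10.5%, and groups 2 and 12 held 1.20% and 0.0276%. Genes of group 4 were below 0 in all 4 clusters, and their sum was 36.4, 26.3 and 30.8 RPKM in the D391N libraries and 47.4, 49.1 and 46.6 RPKM in the controls. The group 11 genes HOXA11, HOXC11 and HOXD11 were below 0 in all 3 clusters that have them. Their sum was 11.1, 8.04 and 14.3 RPKM against 15.8, 16.6 and 16.1 RPKM. The group 10 genes HOXA10, HOXC10 and HOXD10 were also all below 0, and their sum, which includes HOXA10-205, was 94.0, 81.6 and 114.6 RPKM against 127, 129 and 116.5 RPKM. In the sums of groups 4, 11 and 10 every D391N library was below every control. The log2 differences of -0.63, -0.58 and -0.38 remain below 0 with the shift of 0.22 that centring adds. Other sums were higher in the D391N group, among them those of groups 13, 7, 8, 6, 5 and 9. Their log2 differences were 0.35, 0.35, 0.22, 0.20, 0.19 and 0.06, and in each of them the D391N and control libraries overlapped. The group 10 value depends on HOXA10-205, and its sum was not formed without that transcript. HOXA10 itself changed sign without HOXA10-205, from a log2 difference of -0.35 to 0.22. The paralogue group sums were formed after the gene values were seen and were not tested.

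Transcripts of the same HOX gene often lay on different sides of 0. Of 19 genes with several tested transcripts, 14 had transcripts on both sides of 0. The 76 tested HOX transcripts had a median log2 fold change of -0.23, with 49 below 0 and 27 above, and all tested transcripts had a median of -0.07. Transcripts without an annotated coding sequence held 35.1% of the HOX level in the D391N group and 36.05% in the controls, and protein-coding ones 52.1% and 54.1%. These shares overlapped between the groups (two-sided exact permutation p = 0.80 and 0.40). The 7 transcripts that were not matched in the annotation, ENST00000613671 among them, held 11.6% and 8.57% (exact permutation p = 0.10).

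Some HOX transcripts are on a list of RNAs that were cross-linked to DIS3L2 D391N in the same study. They belong to HOXD1, HOXB3 and HOXB9. HOXD1 was at 0.37, 0.16 and 0.26 RPKM in the D391N libraries and at 0.35, 0.35 and 0.35 RPKM in the controls, and was not tested. Its highest and lowest values were both in the D391N group. The listed HOXB3 transcript, HOXB3-208, stayed under 0.1 RPKM in every library, with at most 1.09 estimated reads, so that no difference was detectable at this depth. The listed HOXB9 transcript has no values in the RNA-seq data used here, and the values of the gene given above are those of HOXB9-201.

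Non-coding genes of the HOX clusters include antisense RNAs and microRNA precursors. Of 25 listed genes, 23 were in the table and 16 were tested. HOXA-AS3 was called (0.14% over all tested genes), and 15 of the 16 were below 0, with a median log2 fold change of -0.28. Among the 16, the microRNA precursors MIR10B, MIR196A1 and MIR196A2 had at most 3.42, 6.66 and 3.17 estimated reads in any library. Their values thus rest on few reads. Under median centring 12 of 16 were below 0 with a median of -0.06, and under quantile normalization 11 of 16 with a median of -0.09. HOTAIR, transcribed from the HOXC cluster, was the most abundant at 15.5, 19.4 and 21.1 RPKM in the D391N libraries and at 21.7, 21.2 and 22.45 RPKM in the controls. The highest D391N library lay just below the lowest control (log2 fold change -0.23, SE 0.16, limma adjusted p = 0.415).

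The TALE cofactors bind DNA with HOX proteins, and 0 of their 8 tested genes passed the threshold, while 4 had an unadjusted limma p under 0.05, beside 22.7% of all tested genes, and 5 were below 0. PBX3 had the highest mean level, at 36.15, 27.9 and 44.6 RPKM in the D391N libraries and at 45.05, 39.6 and 29.9 RPKM in the controls, with overlapping groups. PBX2 was at 10.1, 2.20 and 8.15 RPKM against 20.5, 17.5 and 13.7 RPKM, without overlap (log2 fold change -1.57, SE 0.55, limma adjusted p = 0.169). As few as 0.561 and at most 49.2 estimated reads stood behind the PBX2 values.

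Polycomb genes, which keep HOX loci silent, were called in 0 of 18 tested cases, with 9 at an unadjusted limma p under 0.05 (22.7% over all tested genes) and 12 below 0. RBBP7 was the most abundant at 294.5, 393 and 401 RPKM in the D391N libraries and at 409, 395 and 467 RPKM in the controls. PCGF2 was at 3.74, 1.60 and 3.97 RPKM against 8.35, 6.97 and 6.18 RPKM (log2 fold change -1.27, SE 0.36, limma adjusted p = 0.129). An estimated 13.2, 2.85 and 10.1 reads stood behind its D391N values and 65.3, 107 and 24.0 behind its control values. BMI1 differed in the other direction, at 73.3, 153 and 107.5 RPKM against 61.5, 48.9 and 52.3 RPKM (log2 fold change 0.98, SE 0.28, adjusted p = 0.129). Both are PCGF subunits of Polycomb repressive complex 1, and the groups did not overlap in either. Without D391N replicate 1, BMI1 (adjusted p = 0.027) passed the threshold, and over its 15 alternatives the adjusted p ran up to 0.335.

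The MLL and Trithorax genes, which keep HOX loci active, were called in 0 of 11 cases, with 1 at an unadjusted limma p under 0.05 (22.7% over all tested genes). PSIP1, the most abundant, was at 176, 202 and 198.5 RPKM in the D391N libraries and at 199, 176 and 197 RPKM in the controls. RBBP5 (log2 fold change 0.49, limma adjusted p = 0.161) and KMT2B (-0.44, adjusted p = 0.221) differed most among them. Of the retinoic acid and boundary factors 0 of 8 were called, with 4 at an unadjusted limma p under 0.05, beside the same 22.7%. The replication licensing inhibitor GMNN was the most abundant, at 244, 330.0 and 263 RPKM against 193, 160 and 141 RPKM (log2 fold change 0.76, SE 0.20, adjusted p = 0.119). The retinoic acid receptor genes RARB (-0.87, adjusted p = 0.197) and RXRA (-0.77, adjusted p = 0.159) were lower in every D391N library than in any control. Of 8 flanking and ParaHox homeobox genes only CDX2 reached 1 RPKM, at 2.80, 1.88 and 1.69 RPKM against 3.34, 3.84 and 3.42 RPKM (log2 fold change -0.74, adjusted p = 0.159).

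The median log2 fold changes of these lists lay near that of all tested genes (-0.09). They were -0.21 for the TALE cofactors, -0.11 for the Polycomb genes, -0.02 for the MLL and Trithorax genes and -0.13 for the retinoic acid and boundary factors. Under median centring all 4 were above 0, at 0.007, 0.11, 0.20 and 0.09 beside 0.13 for all genes.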

How the data were processed

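The table analysed covers 3 libraries from cells expressing D391N and 3 control libraries. After ribosomal RNA depletion, directional libraries were sequenced by the authors, who removed adapters with cutadapt. Segemehl was used for mapping to the coding and non-coding Ensembl transcripts (hg38), and BitSeq for quantification. Tool versions are not given in the sources used here. For each transcript and library the deposited file gives a posterior mean on the natural log scale (ln RPKM), with the variance of that posterior as a score of uncertainty. The means were exponentiated to RPKM, and gene levels are sums over transcripts. Symbols were matched for 88.24% of genes.

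Features averaging at least 1 RPKM were compared on log2(RPKM + 0.1) with limma 3.58.1 (trend) in R 4.3.3, with Benjamini-Hochberg adjustment over all of them and a threshold of 0.05. Fold changes on this scale understate the change of low genes. Quantities with 1 value per library were compared by two-sided exact permutation tests. Python 3.11.15 with numpy 2.4.6, matplotlib 3.10.9 and pandas 2.3.3 was used for tables and plots. Read numbers were estimated from the posterior variance and cover counting and assignment error only. Of all transcripts, 54.9% had under 3 estimated reads in every library. The fits were tested on simulated data.

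Samples were grouped by their labels. Values in every library are given for the 2 most abundant genes per cluster, for HOX genes or transcripts past the threshold, for HOXA10 and its transcripts, for the 3 largest changes in each direction and for the HOX genes on the cross-linking list. Of each gene list, the most abundant gene and the genes past the threshold, else the 2 with the largest changes, are named. Other names were chosen after their values were seen. Some items are counted in totals but are not reported here by name. The members, gene lists and tests were chosen with earlier results of these data known. Alternatives were other pseudocounts, filters and scalings, limma without trend, a replicate block and leaving out each library.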

Additional observations from a re-analysis of the deposited data

How the results depend on the processing

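For 35 named genes and transcripts, 485 of 516 values under the alternatives kept their direction and their side of the threshold, 16 lost a call, 2 gained a call and 13 changed sign. The 16 lost calls were those of HOXA10-205 and HOXA-AS3, and the 2 gained calls, both without D391N replicate 1, were those of HOXC4 and BMI1. HOXC6 changed sign under median centring (0.041), PBX3 under median centring (0.137) and RBBP7 under quantile normalization (0.137). With 1 library left out, values that changed sign ranged from -0.353 to 0.0368 for HOXC6, -0.247 to 0.0919 for PBX3, -0.0454 to 0.0727 for PSIP1, -0.0544 to 0.313 for ENST00000613671 and -0.355 to 0.127 for HOXA10-201. The cause was not tested. HOXA10 turned to 0.22 without HOXA10-205, a setting chosen after seeing the data, because that transcript was left out of the sum.

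The HOX transcripts past the threshold numbered 0 with a replicate block (HOXA10-205 with an adjusted p of 0.158 in limma) and 0 to 3 when 1 library was left out, and the HOX genes 0 to 1. Gene sums without transcripts under 3 estimated reads in every library, also added after seeing the data, gave 0. The cluster differences ranged, with 1 library left out, from -0.0184 to 0.205 (HOXA), -0.0391 to 0.0519 (HOXB), -0.113 to 0.0423 (HOXC) and -0.415 to -0.205 (HOXD). With the most abundant transcript of each gene only, HOXB (-0.0648) and HOXC (0.0864) changed sign, and HOXC (0.191) also did under median centring. The median of the HOX genes was -0.178 as reported and ranged from -0.353 to 0.041 over the alternatives.

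Replicate numbers did not pair the libraries (correlations of deviations 0.07, 0.22 and -0.11). The replicate block lowered the calls over all genes from 29 to 2 and over all transcripts from 33 to 7, and changed no HOX gene call. Other settings with all 6 libraries gave 6 to 61 genes and 17 to 142 transcripts, and leaving out 1 library gave 2 to 2261 genes and 2 to 4961 transcripts. Of the gene calls, 96.6% were lower in the D391N libraries, beside 92.9% under median centring and 88.2% under quantile normalization. With a filter of 5 RPKM, HOXA7, HOXC5, HOXD9, HOXA10-201, HOXA10-204, RARB, RXRA, CDX2 and HOXA-AS3 were not tested and gave no value.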
